A study of Mus musculus with 2 samples.

Results

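The Cyp4a omega-hydroxylase family is a group of cytochrome P450 enzymes that add a hydroxyl group to the far end of a fatty acid chain. Its 7 members here, Cyp4a10, Cyp4a12a, Cyp4a12b, Cyp4a14, Cyp4a30b, Cyp4a31 and Cyp4a32, were taken by gene symbol from the 27179 genes of the deposited tables. The family was selected on the KO to WT ratios of its members in these same 2 libraries, so those ratios are a description and were not tested. A gene with a similar symbol, Cyp4a29, was not among them and had 0 counts.

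Omega-hydroxylation is the first step of a side route of fatty acid breakdown that starts in the endoplasmic reticulum. Alcohol and aldehyde dehydrogenases turn the product into a dicarboxylic acid, which is activated to its coenzyme A ester and shortened by beta-oxidation in peroxisomes. Cyp4a enzymes also convert arachidonic acid to 20-HETE, a lipid that acts on blood vessels and kidney tubules. In mouse liver and kidney, Cyp4a10 and Cyp4a14 are classical target genes of the fatty acid receptor PPAR-alpha, and Cyp4a12a is known for its dependence on androgens in the kidney. Brown adipose tissue is rich in PPAR-alpha but is not a typical site of high Cyp4a expression.

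The libraries came from untreated 20-day-old mice on the Bl6N background and from their interscapular brown adipose tissue (iBAT), a depot that produces heat. One group was wild-type (WT), and the other was Ucp1 KO (KO), a knockout of uncoupling protein 1, which dissipates the proton gradient of brown fat mitochondria as heat. Each group was 1 library made from 3 pooled animals, described as male, and directional libraries of poly-adenylated RNA were sequenced. Without replicates there is neither a standard deviation nor a p-value, and each difference compares 1 library with 1 other.

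The libraries held 52950913 (WT) and 53216727 (KO) counts. Ucp1, the targeted gene, was lower but not at 0, with 366473 counts in the WT and 37853 in the KO library, a normalised level of 12.7% of WT. Several features moved with genotype. Transcripts of 15 mitochondrially encoded genes took 22.4% of the WT and 36.7% of the KO counts. In the KO library all 13 markers of skeletal muscle were lower by 2-fold or more, and their sum was 0.606% of the counts in WT against 0.0723%. Of the Y-linked genes, Eif2s3y, Kdm5d, Uty and Ddx3y were listed at 0 in the WT library and had 491, 570, 798 and 3446 counts in the KO library, while Xist had 32380 and 16478 counts. The WT library therefore had Xist without the Y-linked transcripts of male tissue, and the KO library had both. Neither library thus read as male tissue alone, although the animals were described as male. The sex make-up of the pools differed along with genotype, and their effects cannot be told apart. The part that any of these features had in the Cyp4a values was not tested. In bulk tissue, more cells of a type and more RNA per cell cannot be told apart either.

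All 7 genes lie in 1 cluster of 323.5 kb on chromosome 4 of the mouse build GRCm39. In the annotation used here (GENCODE mouse release 39) each is protein-coding with 12 coding exons and a coding length of 1521 to 1527 bases. Along the chromosome the order is Cyp4a12a (chr4:115156243-115190012), Cyp4a12b (chr4:115268820-115296235), Cyp4a30b (chr4:115309801-115328259), Cyp4a14 (chr4:115343397-115353344), Cyp4a10 (chr4:115375461-115390849), Cyp4a31 (chr4:115420818-115436212) and Cyp4a32 (chr4:115458134-115479704). Only Cyp4a14 is on the minus strand.

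Sequence likeness decides how well reads can be given to one member. Over the coding sequence Cyp4a10 and Cyp4a32 were 97.2% identical, Cyp4a10 and Cyp4a31 96.6%, and Cyp4a31 and Cyp4a32 96.0%. Cyp4a12a and Cyp4a12b formed a second near-identical pair at 98.5%. Cyp4a14 and Cyp4a30b were closest to each other, at 79.6%, and so stood apart from the rest. Cyp4a10, Cyp4a31 and Cyp4a32 were not all the same at 77 of 1527 coding positions, and the longest run without a difference among them was 148 bases. The stretch of 75 bases where these 3 differ most, at 11 positions, lies in coding exon 2 and is shown because reads over it can tell the 3 genes apart; capitals mark the positions at which they differ, and all are read 5′ to 3′ on the plus strand of GRCm39, at chr4:115376827-115376901, chr4:115422207-115422281 and chr4:115459457-115459531 in the order given.
Cyp4a10: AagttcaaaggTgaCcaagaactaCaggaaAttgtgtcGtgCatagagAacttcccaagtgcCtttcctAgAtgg
Cyp4a31: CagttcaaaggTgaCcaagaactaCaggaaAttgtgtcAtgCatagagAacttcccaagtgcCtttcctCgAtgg
Cyp4a32: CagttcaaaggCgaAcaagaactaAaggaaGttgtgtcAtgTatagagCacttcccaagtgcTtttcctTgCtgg

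Most longer windows of these genes were distinct as well. Of all windows of 150 coding bases, 7.98% of those of Cyp4a32, 7.18% of Cyp4a31 and 6.17% of Cyp4a10 occur unchanged in another member, and at 100 bases the shares were 20.1%, 13.9% and 17.9%. For Cyp4a12a and Cyp4a12b the shares were 31.9% at 150 bases and 41.3% at 100 bases. No window of Cyp4a14 or Cyp4a30b at either length was found in another member. How reads that match several genes were counted is not stated, so the split among Cyp4a10, Cyp4a31 and Cyp4a32 is uncertain, and their sum is given below beside the single genes.

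The Cyp4a transcripts were scarce in WT iBAT and more abundant in the KO library. Summed over the 7 members, there were 80 counts in the WT library (95% Poisson interval 57.2 to 109) and 645 in the KO library (577 to 719). As CPM, counts scaled to equal library totals, these are 1.51 and 12.1. On normalised counts the KO level was 9.86-fold that of WT (95% counting interval 7.13 to 14.2), a log2 ratio of 3.30 (2.83 to 3.82). The log2 ratio is log2 of KO over WT after a pseudocount of 0.5 was added to each normalised count. Intervals describe the error of counting alone and leave out differences between animals. Reads that carry no molecular identifier need not be separate molecules, so the intervals may be too narrow even for the error of counting.

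The members did not share the difference evenly. Of the 7, 3 had 0 counts in both libraries, 1 had too few counts to be examined (a mean normalised count under 10), and the remaining 3 were examined. All 3 examined members, Cyp4a32, Cyp4a14 and Cyp4a10, were at least 2-fold higher in the KO library, as were 7.42% of the 15212 genes examined, and 0 were 2-fold lower, as were 9.55% of all. Their counting intervals lay wholly above 0, as did those of 31.5% of the genes examined, against 30.5% wholly below 0. All 3 intervals also lay wholly above a 2-fold difference, which 2.72% of the genes did, against 3.72% wholly below a 2-fold lower level. Since the members were selected on this contrast, nothing is read from these counts.

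Cyp4a32 (Entrez gene 100040843) carried most of the family's signal. It had 39 counts in the WT library (23.7 to 60.6) and 481 in the KO library (422 to 546). The intervals of the libraries did not overlap, which is a description only, since Cyp4a32 was selected on this contrast. The normalised level was 15.0-fold that of WT (9.56 to 25.5), a log2 ratio of 3.91 (3.26 to 4.67), which placed it at rank 76 from the highest among the genes examined. Cyp4a32 made up 77.5% of the family's normalised difference between the libraries.

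Cyp4a14 (Entrez gene 13119), a PPAR-alpha target whose coding sequence is not shared with the other members, had 15 counts in the WT library (6.26 to 30.2) and 88 in the KO library (63.9 to 118). The log2 ratio was 2.81 (1.72 to 4.20). Because no window of 100 coding bases of Cyp4a14 recurs in the family, reads over its coding sequence need no split among members. Cyp4a14 held 13.1% of the family's difference.

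Cyp4a10 (Entrez gene 13117), the other classical PPAR-alpha target of the family, had 16 counts in the WT library (6.91 to 31.5) and 74 in the KO library (52.1 to 102). The normalised level was 5.54-fold that of WT (2.61 to 14.2), a log2 ratio of 2.47 (1.38 to 3.82), and it made up 10.5% of the family's difference. The counting intervals of the log2 ratios of Cyp4a10 and Cyp4a14 overlapped over most of their range. Those of Cyp4a10 and Cyp4a32 overlapped as well, so these intervals do not settle the order of the single ratios. The share of Cyp4a32 among all Cyp4a counts is given below.

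Cyp4a31 (Entrez gene 666168) did not share the direction of the other members with counts. It had 10 counts in the WT library (3.25 to 23.3) and 2 in the KO library (0.0506 to 11.1). The intervals overlapped, and the log2 ratio of -1.81 had an interval of -7.59 to 1.14, so a difference was not detectable at this depth. With its mean normalised count of 5.62 it was not examined further.

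The near-identical members were then summed, which removes the question of how reads were split among them but not of reads left out. Cyp4a10, Cyp4a31 and Cyp4a32 together had 65 counts in the WT and 557 in the KO library, a log2 ratio of 3.39 (2.87 to 3.97) or 10.5-fold. The family without Cyp4a32 had 41 and 164 counts, which gives a log2 ratio of 2.28 (1.59 to 3.07). The family's sum was thus higher in the KO library with and without its most abundant member, by less without it.

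Cyp4a12a, Cyp4a12b and Cyp4a30b (Entrez genes 277753, 13118 and 435802) were listed at 0 in both libraries. A count of 0 allows up to 3 read pairs, or 6 counts, which is 0.113 CPM in either library. For the near-identical pair Cyp4a12a and Cyp4a12b, reads matching both genes may have been left out of the counts, so that limit applies to reads that could be assigned. No fold is given for these 3 genes.

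**Figure D1:**
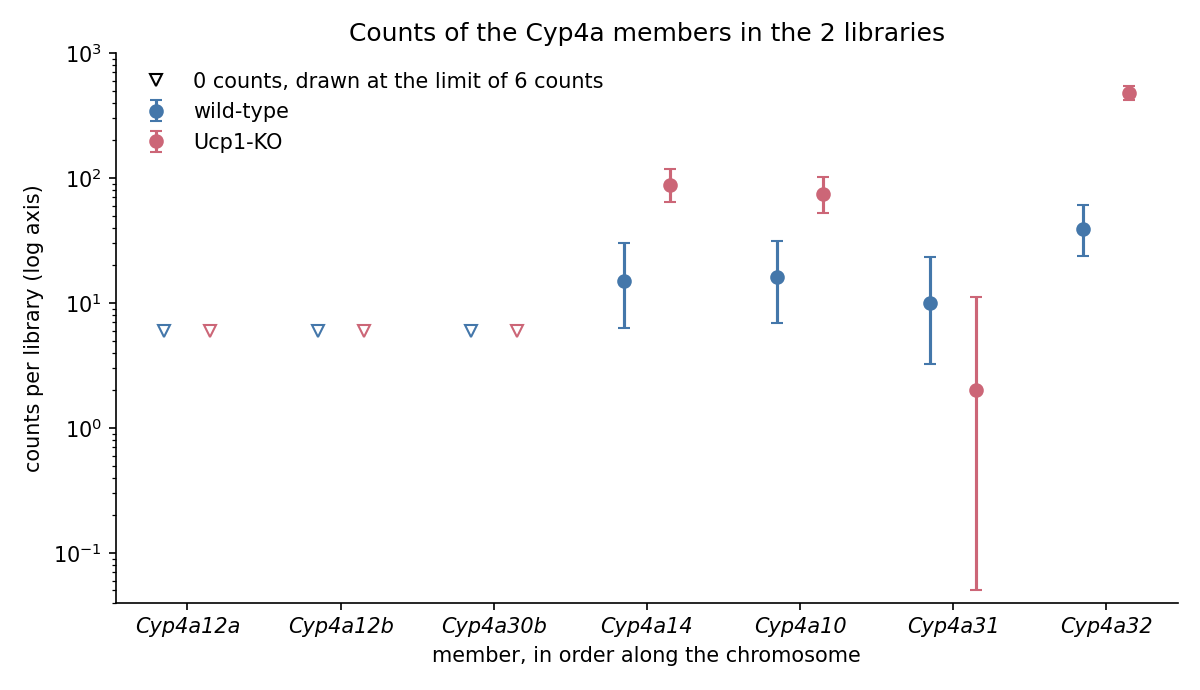
Counts of each Cyp4a member (log axis) in the WT (blue) and KO (red) libraries, in the order of the genes along the chromosome. Bars are 95% Poisson intervals of the counting error, and open triangles are 0 counts drawn at the limit of 6 counts. Cyp4a14, Cyp4a10 and Cyp4a32 have separate intervals and Cyp4a31 has overlapping ones. The members were selected on this contrast, so nothing is read from the separation.

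Levels were compared between members per kilobase of merged exon, in CPM per kb. Cyp4a32 was at 0.339 in WT and 4.16 in KO, the highest level of the family in each library. Cyp4a10 was at 0.143 and 0.658, and Cyp4a14 at 0.106 and 0.621. Cyp4a31 was the lowest of the members with counts, at 0.0744 and 0.0148. In WT the counting intervals of Cyp4a10, Cyp4a14 and Cyp4a31 overlapped, and that of Cyp4a32 reached those of Cyp4a10 and Cyp4a14. In KO, Cyp4a10 and Cyp4a14 could not be ordered, since per kilobase of coding sequence the KO levels were 0.911 for Cyp4a10 and 1.09 for Cyp4a14.

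The make-up of the family does not depend on the scaling between libraries. It was computed from the same member counts on which the family was selected, so it is a description and not a further result. Cyp4a32 held 48.8% of the Cyp4a counts in WT (95% Clopper-Pearson interval 32.7% to 65.0%) and 74.6% in KO (69.5% to 79.2%), shares whose intervals did not overlap. Cyp4a31 held 12.5% in WT (4.19% to 26.8%) and 0.310% in KO (0.00785% to 1.72%), again without overlap, but its KO share rests on 2 counts. Cyp4a10 went from 20.0% (9.05% to 35.6%) to 11.5% (8.21% to 15.5%) and Cyp4a14 from 18.8% (8.19% to 34.2%) to 13.6% (10.1% to 17.9%), and for these the intervals overlapped. Relative to Cyp4a32 in the same library, Cyp4a31 was at 25.6% in WT (7.50% to 70.7%) and 0.416% in KO (0.0105% to 2.34%). Cyp4a31 and Cyp4a32 are among the genes for which the split of reads is uncertain.

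**Figure D2:**
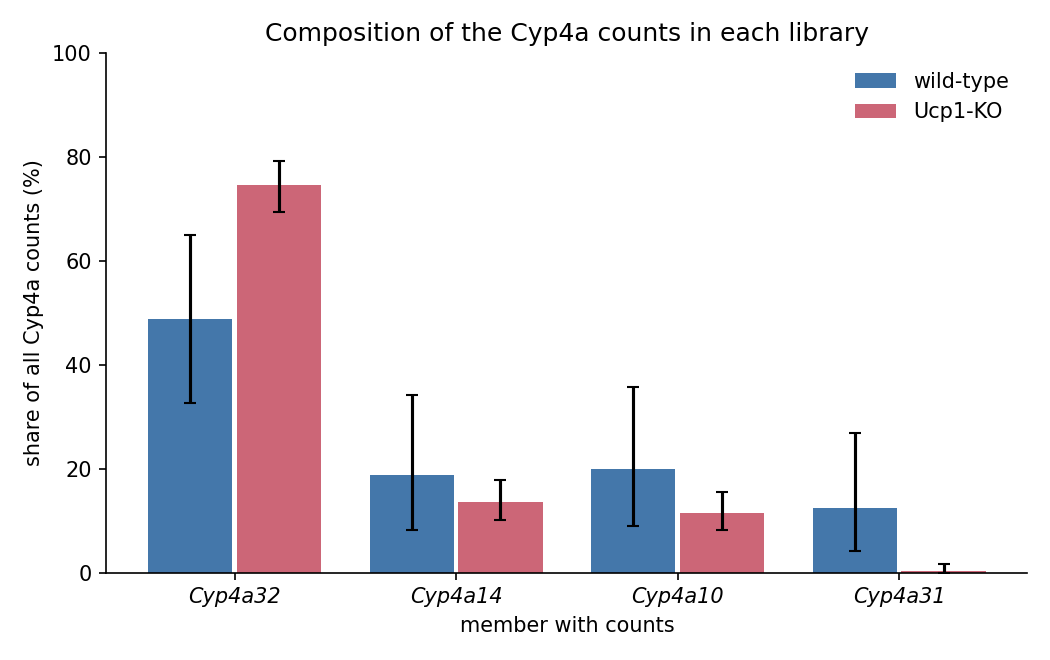
Share of all Cyp4a counts (percent) held by each member with counts in the WT (blue) and KO (red) libraries, with 95% Clopper-Pearson intervals as bars. The share of Cyp4a32 is 48.8% in WT and 74.6% in KO, and that of Cyp4a31 is 12.5% and 0.310%.

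Across all examined genes, Cyp4a32 combined a large ratio with a mean normalised count of 284, which was above that of 35.2% of them. Its normalised count was 35 in WT and 534 in KO. The median log2 ratio of the 15212 genes was -0.0016. Among the 35 examined of 104 genes with a cytochrome P450 symbol (Cyp and a digit), the median was 0.10. Of these 35, 9 (25.7%) were 2-fold or more higher and 9 (25.7%) lower, beside 7.42% and 9.55% of all genes examined. Cyp4a32, Cyp4a14 and Cyp4a10 held ranks 2, 3 and 4 from the highest of these, behind Cyp4f39 with 0 counts in WT and 24 in KO. Since 3 of the 35 are Cyp4a members selected on this contrast, no balance of the P450 genes is read from these counts.

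**Figure D3:**
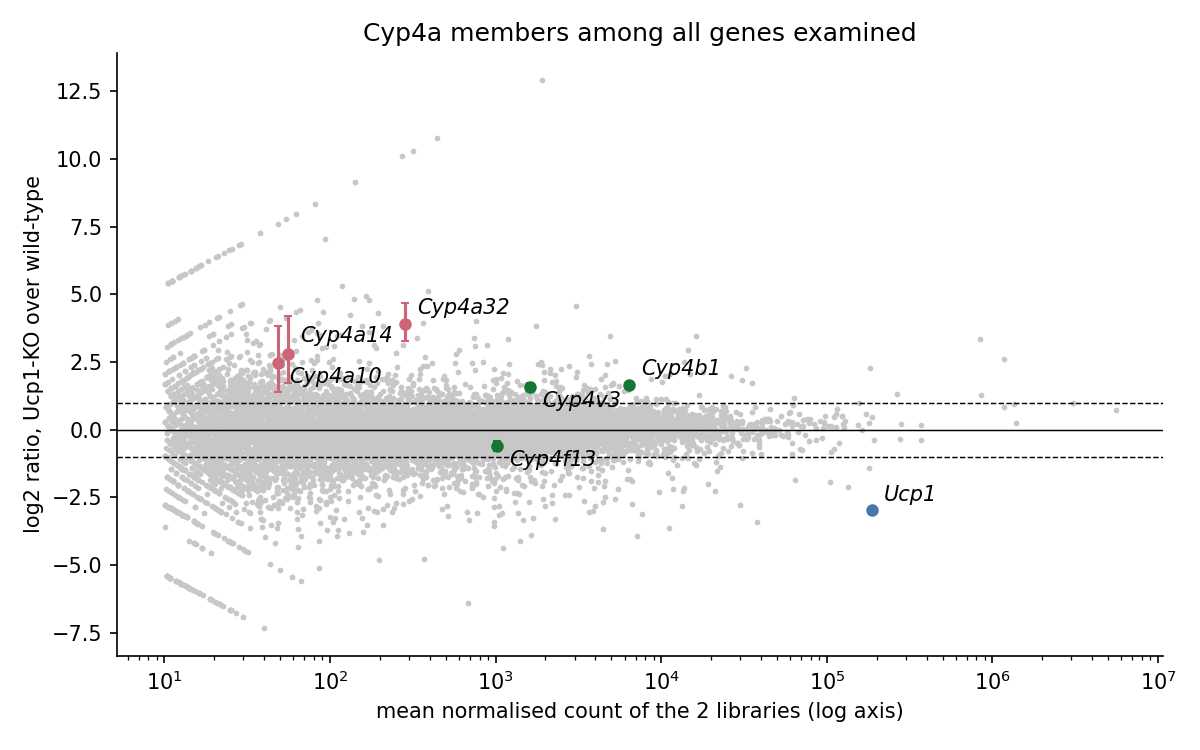
Log2 ratio of KO over WT against the mean normalised count of the 2 libraries (log axis) for the 15212 genes examined (grey), with the Cyp4a members in red, other CYP4 genes in green and Ucp1 in blue. Bars are 95% counting intervals and dashed lines mark a 2-fold difference; Cyp4a32 lies at 3.91, Cyp4a14 at 2.81 and Cyp4a10 at 2.47, and lines of grey points at low counts are genes listed at 0 or few counts in one library.

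The position of the members in the cluster was then set beside their counts. The 4 members with counts, Cyp4a14, Cyp4a10, Cyp4a31 and Cyp4a32, are consecutive among the 7 and form the distal end of the cluster, while the 3 listed at 0 lie together at its proximal end. Within 200000 bases of the cluster the tables held 7 further genes, a window chosen after the values were seen, and 5 of them had counts. Cyp4b1, a CYP4 enzyme of lung and other tissues next to Cyp4a32, had 3407 counts in WT and 8801 in KO, or a log2 ratio of 1.67 (1.59 to 1.75). The pseudogene Cyp4b1-ps2, which lies between Cyp4a31 and Cyp4a32, had 30 and 0 counts. With the 0 set to the limit of 6 counts it was 4.06-fold lower, and its counting interval reached up to a log2 ratio of -1.54. Efcab14 (2851 and 1932 counts, log2 ratio -0.26), Tex38 (16 and 16 counts, 0.29) and Atpaf1 (564 and 515 counts, 0.17) stayed within a 2-fold difference. Genes of both directions therefore lay within the same region.

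Exons of Cyp4a32 and Cyp4b1 overlap on opposite strands in this annotation, over 657 bases or 30.2% of the merged exons of Cyp4a32. For Cyp4a14 the overlap is with the non-coding gene Gm52676, over 223 bases or 8.37%. The libraries were directional, but the strand setting of the counting is not given in the sources used here, so reads of Cyp4a32 and Cyp4b1 over the shared bases cannot be told apart. As a percentage of the Cyp4b1 counts in the same library, Cyp4a32 was at 1.14% in WT (0.693% to 1.78%) and 5.47% in KO (4.78% to 6.22%). Cyp4a32 was selected on its own KO to WT ratio, so this percentage is a description, and the part of the shared bases in it was not tested.

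**Figure D4:**
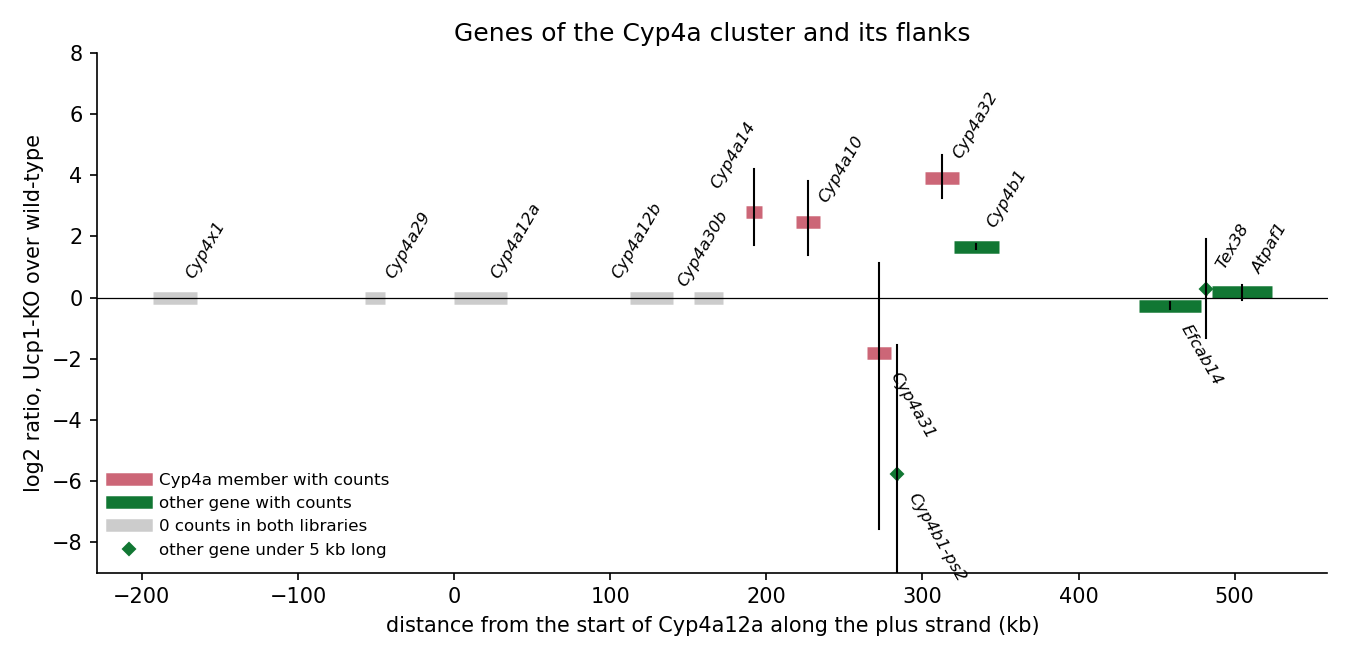
Log2 ratio of KO over WT for the genes of the Cyp4a cluster and its flanks, plotted at their position in kb from the start of Cyp4a12a. Horizontal bars span each gene to scale (diamonds for short genes) and vertical lines are 95% counting intervals, that of Cyp4b1-ps2 being open downwards because its KO count is 0; grey bars at 0 are genes without counts and carry no ratio. The members with counts sit at the right end of the cluster, beside Cyp4b1 at 1.67.

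Other CYP4 enzymes, which hydroxylate fatty acids, leukotrienes and vitamins, were the closest relatives listed. Of 13, 6 had 0 counts in both libraries and 7 were examined, with a median log2 ratio of 0.000094. Of the 7, 3 were 2-fold or more higher and 0 lower, beside 7.42% and 9.55% of all genes examined. The higher genes were Cyp4b1, Cyp4v3, a fatty acid hydroxylase known from retinal disease (902 and 2180 counts, log2 ratio 1.57, 1.41 to 1.73), and Cyp4f39 (0 and 24 counts). With the 0 set to the limit of 6 counts Cyp4f39 was 4.92-fold higher, and its counting interval began at a log2 ratio of 1.77. Cyp4f13 had 1370 and 733 counts, which gives a log2 ratio of -0.60 (-0.79 to -0.42). The ratios of the examined Cyp4a members, from 2.47 to 3.91, were above those of Cyp4b1 and Cyp4v3, but the counting intervals of Cyp4a10 and Cyp4a14 overlapped with those of both.

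Microsomal P450 enzymes depend on electron donors, and of the 5 listed, 0 were 2-fold or more higher or lower. Of all genes examined, 7.42% were higher and 9.55% lower by this rule. The median log2 ratio of the 5 donors was 0.27. Por, the P450 reductase, had 9330 counts in WT and 9116 in KO, or a log2 ratio of 0.27 (0.21 to 0.33). Cytochrome b5 (Cyb5a) was at 0.41, its outer mitochondrial form Cyb5b at 0.30 and the b5 reductase Cyb5r3 at 0.15. The fifth, the reductase Cyb5r1, was at -0.02.

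The dehydrogenases of the next step gave a like picture. Of 9 alcohol and aldehyde dehydrogenases, 8 were examined, with a median log2 ratio of 0.06. Of the 8, 1 was 2-fold or more higher and 0 lower, beside 7.42% and 9.55% of all genes examined. Adh7, known from stomach epithelium, had 18 and 48 counts, which gives a log2 ratio of 1.68 with an interval wholly above 0. The abundant members lay near 0, with Adh1 at 0.02 (6394 and 5257 counts) and the fatty aldehyde dehydrogenase Aldh3a2 at -0.13 (1894 and 1403 counts). Adh5 was at 0.60, Adh4 at -0.28 and Aldh3b1 at -0.38.

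The 18 genes of dicarboxylic acid activation and peroxisomal oxidation were all examined, with a median log2 ratio of 0.31. Of the 18, 3 were 2-fold or more higher and 1 lower, beside 7.42% and 9.55% of all genes examined. Ehhadh, the peroxisomal bifunctional enzyme that shortens dicarboxylic acids, had 4884 counts in WT and 16426 in KO, or a log2 ratio of 2.05 (1.98 to 2.12). Slc27a2, a very long chain acyl-CoA synthetase, was at 2.94 (2.87 to 3.01; 3741 and 23261 counts), and Acot4, a peroxisomal thioesterase for succinyl-CoA and dicarboxylic acyl-CoA, at 3.08 (2.76 to 3.42; 175 and 1204 counts). Acot4 has close paralogs, so its count is uncertain in the same way as those of Cyp4a10 and Cyp4a32. The transporter Abcd2 was at -0.88, within 2-fold. Pex11a, a PPAR-alpha target of peroxisome division, had 40 and 15 counts, which gives a log2 ratio of -1.09 with an interval of -2.55 to 0.16 that includes 0.

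PPAR receptors and their partners were examined as the known regulators of Cyp4a10 and Cyp4a14. Of 12 genes, 2 were at least 2-fold higher and 0 lower, beside 7.42% and 9.55% of all genes examined. The median log2 ratio of the 12 was 0.29. Ppara had 12989 counts in WT and 13218 in KO, or a log2 ratio of 0.32 (0.28 to 0.37). The coactivator Ppargc1a was at 1.89 (1.81 to 1.96) and the partner receptor Rxrg at 1.07 (0.94 to 1.21). The corepressor Nrip1 was at 0.87 and Rxra at -0.81.

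Of 29 listed PPAR-alpha targets outside the family, 27 were examined, of which 6 were at least 2-fold higher and 0 lower. Over all genes examined, 7.42% and 9.55% were. Pex11a, at -1.09 with an interval that includes 0, is also a target but was counted on the peroxisomal list only. Counting intervals lay wholly above 0 for 20 of the 27 and wholly below 0 for 4, where 31.5% and 30.5% of all genes did. The median log2 ratio was 0.35, beside -0.0016 over all genes. Fgf21, a hormone of fasting and mitochondrial stress, had 0 and 98 counts. With the 0 set to the limit of 6 counts it was 20.1-fold higher, and its counting interval began at a log2 ratio of 3.98. The thioesterases Acot1 and Acot2, which are near-identical to each other, were at 2.70 and 2.43. Pdk4, which restrains pyruvate oxidation, was at 0.75. Ehhadh is on this list too.

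CYP2 genes and epoxide hydrolases were listed for the other P450 route for arachidonic acid, with 12 genes found in the tables, of which 5 were examined. Whether each listed CYP2 gene acts on arachidonic acid was not tested. Of these 5, 1 was at least 2-fold higher and 0 lower, beside 7.42% and 9.55% of all genes examined. Their median log2 ratio was -0.04. The higher gene, Cyp2c70, had 6 and 24 counts, which gives a log2 ratio of 2.20 (0.41 to 4.76), with the WT count at the limit of 6 counts. Cyp2j9 was at -0.58, the microsomal hydrolase Ephx1 at -0.97 and the soluble hydrolase Ephx2 at 0.10.

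**Figure D5:**
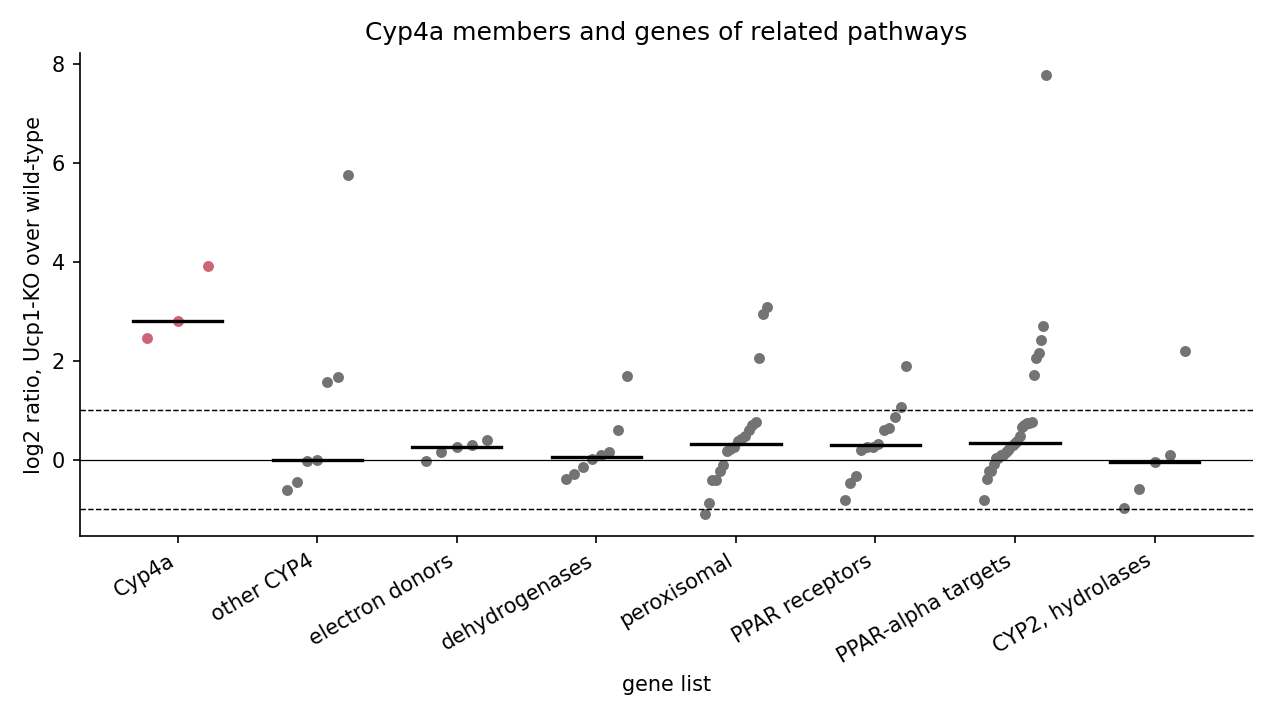
Log2 ratio of KO over WT for each examined gene (points) of the Cyp4a family (red) and of 7 lists of related genes (grey), with the median of each list as a bar and dashed lines at a 2-fold difference. The list medians lie between -0.04 and 0.35 and the Cyp4a members between 2.47 and 3.91; the highest points, Cyp4f39 and Fgf21, are listed at 0 in WT and their plotted ratios depend on the pseudocount.

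Liver and kidney express Cyp4a genes strongly, so markers of both were read in the same libraries. Of 10 hepatocyte markers, 4 (Ahsg, Apoh, Fga and Fgb) had 0 counts in both libraries, and the summed level of all 10 was 32.5 CPM in WT and 33.3 in KO. Nearly all of it was Cyp2e1, with 1680 and 1730 counts, while Alb, the most abundant liver transcript, had 2 counts in each. Of the 2 hepatocyte markers with enough counts to be examined, Apoa2 was at least 2-fold higher in KO, with 21 and 41 counts, which gives a log2 ratio of 1.24 (0.13 to 2.49). Apoa1 had 16 and 0 counts. Of 8 kidney tubule markers, 6 (Slc34a1, Lrp2, Slc22a6, Slc22a8, Umod and Kap) had 0 counts in both, and the summed level was 0.453 CPM in WT and 1.05 in KO, from Cubn (24 and 51 counts) and Miox (0 and 5). Cubn was at a log2 ratio of 1.37 (0.35 to 2.51). At counts of the same order as those of Cyp4a10 and Cyp4a14, Apoa2 and Cubn were thus higher in KO, while Apoa1, not examined, was lower. The summed hepatocyte level was about the same in both libraries. The part of liver or kidney transcripts in the Cyp4a values was not tested.

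The tissue's own markers were present throughout. The 8 adipocyte markers had a median log2 ratio of 0.25, with 0 at least 2-fold higher and 1, Lep, lower, and the 8 brown adipocyte markers a median of 0.94, with 4 higher (Elovl3, Dio2, Ppargc1a and Prdm16) and 0 lower. All 7 endothelial markers were lower by more than counting error, as were 30.5% of all genes examined. Their median was -0.87, and 1, Emcn, was at least 2-fold lower. The 6 macrophage markers had a median of 0.67, with 3 higher (Itgam, Trem2 and Cd68) and 0 lower. Cyp4a32, Cyp4a14 and Cyp4a10 thus moved in libraries in which marker genes of several cell types also differed, and the part these had in the Cyp4a values was not tested.

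In the windows from 250 bases before to 50 bases after the start of a gene (RefSeq, GRCm38.p6), a direct repeat of AGGNCA with 1 base between its copies, a form of the element that PPAR and RXR bind, was searched on both strands. The table held Cyp4a30b and Cyp4a32 of the 7 members, and neither window contained it, against 0.381% of 32851 windows. The single site AGGTCA, which can be part of the longer motif, was in 0 of 2 and in 16.3% of all windows. Cyp4a10, Cyp4a12a, Cyp4a12b, Cyp4a14 and Cyp4a31 were not searched. At these shares over all windows, 2 windows would mostly lack both motifs, so no conclusion is drawn from their absence.

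Among genes whose mean normalised count reached 100, those whose log2 ratio was nearest to that of the Cyp4a sum were Sgk2, a kinase (238 and 1961 counts, 3.34), the mitochondrial ribosomal RNA mt-Rnr1 (167053 and 1386284 counts, 3.35), Nceh1, a cholesteryl ester hydrolase (143 and 1224 counts, 3.39), Nr4a3, an immediate early nuclear receptor (64 and 552 counts, 3.40) and Mmp12, a macrophage protease (20 and 182 counts, 3.45). Likeness here is the difference of 1 ratio over 2 libraries and says nothing of shared function.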

How the data were processed

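RNA-seq of iBAT from 1 WT and 1 KO library was analysed. The deposited tables hold whole-number counts per gene that the authors made with featureCounts. The submitters' processing notes name Trim Galore, HISAT2 and the build mm39, and the annotation, the strand setting and the handling of multi-mapping reads are not given in the sources used here. For scaling, DESeq2 1.42.0 in R 4.3.3 gave median-of-ratios factors of 1.11 (WT) and 0.901 (KO). A gene was examined where its mean normalised count reached 10, with a size rule of 2-fold.

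Among genes with 1 to 10 counts, 70.7% (WT) and 73.4% (KO) had even counts, so intervals (95%, exact Poisson and Clopper-Pearson) and the limit of 3 read pairs for a count of 0 were computed on read pairs, taken as counts divided by 2. Members, the 15 gene lists and the tests were chosen with earlier results of these data known. Of each list, up to 4 genes with the largest log2 ratio in size were named, together with Ppara, Por, Adh1, Aldh3a2, Ehhadh, Abcd2, Cyp4b1, Cyp4f13, Cyp4v3 and Pdk4. Genes of these lists that are not named are not reported here singly. From all P450 genes the 4 highest and 4 lowest, and by likeness to the family's sum 5 genes, were named. Positions and coding sequences are those of GRCm39, GENCODE mouse release 39, joined by symbol. Near-identical members were grouped at 90% identity of the coding sequence, where protein identity had been planned, since protein sequences were not used here. The scripts were tested on simulated data. Scaling with edgeR 4.0.16, total counts, filters, pseudocounts and intervals were tried as alternatives.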

Additional observations from a re-analysis of the deposited data

How the results depend on the processing

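Each genotype had 1 library, so no replicate could be left out. No paired analysis was possible because each group had 1 library and no replicate number was shared. Recomputing the Cyp4a sums and members gave 31 values. Of these, 30 stayed within counting error and 1, the sum without the most abundant member, moved to 2.28. The setting that computed intervals on the counts as deposited left every ratio unchanged, so its values could not move. Over the other alternatives the log2 ratio was 3.60 to 3.89 for Cyp4a32, 2.47 to 2.80 for Cyp4a14 and 2.16 to 2.46 for Cyp4a10. In all, 179 values were recomputed, of which 36 moved. A change of sign was recorded only for Cyp4a sums, members and Ucp1 whose main interval excluded 0, and there were 0. List medians were not checked in this way. Some of them changed sign, such as those of the electron donors, dehydrogenases and adipocytes under total counts. Scaling to total counts moved the median log2 ratio of all genes to -0.31, so the following are to be read relative to that shift: 732 genes higher and 2320 lower, Ucp1 at -3.28, and list medians of -0.30 (other CYP4), -0.041 (electron donors), -0.25 (dehydrogenases), 0.0075 (peroxisomal genes), -0.014 (PPAR receptors), 0.045 (PPAR-alpha targets) and -0.34 (CYP2 and hydrolases). With low counts kept, 2187 genes were higher and 2844 lower, and 1 Cyp4a member, Cyp4a31, was at least 2-fold lower. At a minimum mean of 50, 617 genes were higher, 811 lower and the CYP2 median was -0.31. With intervals wholly beyond 2-fold, 414 were higher and 566 lower. Of the marker lists, total counts moved the adipocyte median to -0.056, the endothelial one to -1.18, the brown adipocyte one to 0.63 and the muscle one to -3.06, and a minimum mean of 50 moved the macrophage median to 0.25. Without a minimum the hepatocyte median was -0.62 and the kidney median 2.48. Summed counts in place of medians gave 1.19 (other CYP4), 0.18 (dehydrogenases), 0.49 (peroxisomal genes) and 0.48 (PPAR receptors). The cause of these moves was not tested. At 39 counts and fewer per member in WT, counting error limits every Cyp4a ratio.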

Other observations

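Other P450 genes went the opposite way. Cyp1a1, the target gene of the aryl hydrocarbon receptor, had 1386 counts in WT and 112 in KO, or a log2 ratio of -3.32 (-3.75 to -2.94). Cyp2b10, the classical target of the receptor CAR, had 7626 and 781 counts, which gives a log2 ratio of -2.99 (-3.14 to -2.84). Cyp2t4 had 55 and 16 counts, which gives a log2 ratio of -1.46 (-2.83 to -0.31). With the pseudogene Cyp4b1-ps2 these were the lowest P450 genes examined.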
